A study of Mus musculus with 2 samples.

Results

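The miR-297, miR-466, miR-467 and miR-669 families are mouse miRNAs encoded mostly in 1 large intronic cluster of the gene Sfmbt2. They were measured by small RNA sequencing in fibro-adipogenic progenitors (FAPs), mesenchymal cells from muscle with the capacity to become fat cells or fibroblasts. Members were all rows of the table of mature miRNAs whose name holds one of these 4 numbers, an optional letter and an arm. This gave 32 of 628 rows, 1 of miR-297, 12 of miR-466, 6 of miR-467 and 13 of miR-669. In 4 of the 32 rows several miRNAs are joined under 1 value, and each such row was counted once.

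The cells were sorted as Sca1+ FAPs from skeletal muscle of wild-type C57Bl/6 mice and grown in serum with FGF. They were then kept for 24 h in basal medium (BM), which held HS, PS and DMEM, or in adipogenic differentiation medium (ADM). The labels do not describe what ADM held. Each medium is represented by 1 library, so no difference has a replicate check and no p-value was computed. Whether several animals were pooled for a culture is not stated in the labels.

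Sfmbt2 encodes a Polycomb group protein. In the mouse it is imprinted, with expression from the paternal copy in extra-embryonic tissue, and it is best known for its role in the placenta. The miRNA cluster in its intron arose in rodents by repeated duplication, so many of its hairpins are near-copies of each other. A miRNA finds its target mRNAs mainly through its seed, the bases 2 to 8 from its 5′ end, and usually lowers the amount or translation of those mRNAs.

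In GRCm38, the assembly that the submitters' build mm10 names, Sfmbt2 lies on chromosome 2 at 10370510-10595253 on the plus strand. RefSeq annotates 82 hairpins of the families, 72 of them within Sfmbt2 and 10 elsewhere. All 72 lie on the plus strand, the strand of the gene, and none overlaps an Sfmbt2 exon in GENCODE M21. They fill 51.6 kb, from 10466663 to 10518279, inside the intron at 10461473-10523944, which is intron 10 or 11 depending on the transcript. The median distance from one hairpin start to the next is 296 bases. The cluster holds 5 hairpins of miR-297, 24 of miR-466, 14 of miR-467 and 29 of miR-669. RefSeq places 0 miRNAs of other names within Sfmbt2, so no unrelated miRNA of the same intron could be compared. Of 44 distinct hairpin names, 27 have a member row, matched by exact name.

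**Figure D1:**
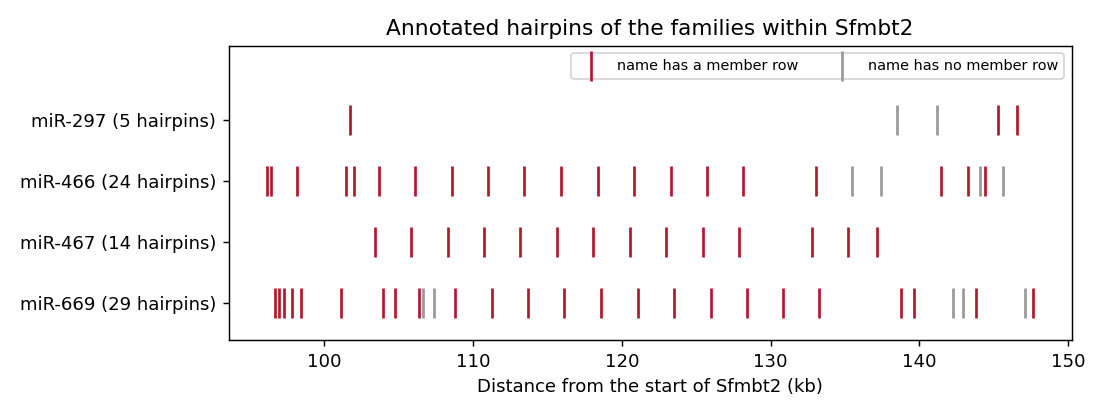
Annotated hairpins of each family within Sfmbt2, with the distance from the start of the gene in kb on the x axis and the family on the y axis. Each tick is 1 hairpin, red where its name has a member row among the 32 and grey where it has none. The miR-466, miR-467 and miR-669 hairpins alternate along most of the 51.6 kb.

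The sequences at hand show a repeat character in miRNAs of 3 of these families whose hairpins lie outside Sfmbt2. In RefSeq (GRCm38.p6), 8 mature miRNAs of these families had a sequence in the table used, and 1 of them, miR-466i-3p, is a member. All 8 come from hairpins outside Sfmbt2. No mature sequence of the cluster or of miR-297 was available, so the values below do not describe the cluster miRNAs. miR-466k and miR-467h are listed in the data without an arm and fall outside the choice of members. The seed is in capitals.
miR-466i-3p: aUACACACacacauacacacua
miR-467f: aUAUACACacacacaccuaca
miR-467g: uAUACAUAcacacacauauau
miR-466q: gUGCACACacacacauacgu
miR-466k: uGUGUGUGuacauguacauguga
miR-466j: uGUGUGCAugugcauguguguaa
miR-467h: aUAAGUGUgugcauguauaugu
miR-669n: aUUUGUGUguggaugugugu

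The upper 4 are rich in CA steps and the lower 4 in UG steps, and all 8 have different seeds. Purines and pyrimidines alternate in a run of 8 to 22 bases in these sequences, with a median of 20. Among the 516 listed miRNAs with a RefSeq sequence the median longest run was 4 bases. A run of at least 12 bases, a length chosen after the files were seen, was found in 4 of the 516 (0.775%). These were miR-466i-3p, miR-466k, miR-467h and miR-574-5p. UG, GU, CA or AC made up 50.0 to 78.9% of the neighbouring base pairs in the 8 sequences, against a median of 28.6% over the 516. No other listed miRNA with a sequence had the seed of miR-466i-3p, miR-466k or miR-467h.

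miR-297a-5p can come from 4 annotated hairpins, of which 3 lie in the Sfmbt2 cluster. The remaining one, Mir297-1, lies between genes on chromosome 7 at 10958437-10958512 on the minus strand. It is shown for the length of its alternating stretch, bases 1 to 50 of 76, in capitals.
Mir297-1: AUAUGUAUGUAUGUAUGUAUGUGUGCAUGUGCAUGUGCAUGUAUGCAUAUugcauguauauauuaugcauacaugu

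Whole reads could be recovered from the deposited percent values. The BM library had 755193 reads as its denominator and the ADM library 790617. The 628 listed rows sum to 99.91% of that denominator in BM and 99.90% in ADM. Percent values are therefore shares of reads nearly all assigned to listed miRNAs, and not necessarily of all sequenced reads. In RPM, which is the percent value times 10000, 1 read equals 1.32 in BM and 1.26 in ADM. Mesenchymal marker miRNAs (6 of 6 names listed) took 17.0% of BM and 21.5% of ADM reads, but they did not move together. miR-21a-5p, miR-143-3p and miR-145a-5p were higher in ADM (log2 ratios 0.42, 0.90 and 0.69). The miR-199a-3p row, miR-199a-5p and miR-214-3p were lower (-0.44, -0.95 and -0.29). Marker miRNAs of muscle fibres (3 of 3) took 0.302% and 0.0296%, nearly all of it miR-133a-3p with a mean of 1646 RPM. The other muscle fibre names, miR-1a-3p and miR-206-3p, had means of only 3.91 and 5.93 RPM. Marker miRNAs of endothelium (2 of 2) took 0.0117% and 0.0257%. Markers of epithelium (3 of 6) had 19 and 16 reads, and those of blood (2 of 5) 1 and 4. Arms of miR-290 to miR-295 and miR-302, which mark embryonic stem cells and the early embryo, had 1 read in BM and 3 in ADM. Whether any of these cell types contributed reads to the families was not tested.

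The 4 families together were scarce and nearly equal in both libraries. They had 157 reads in BM and 169 in ADM, which is 0.0208% of BM reads (95% exact Clopper-Pearson interval 0.0177 to 0.0243%) and 0.0214% of ADM reads (0.0183 to 0.0249%). The ADM share was 1.03 times the BM share, with a 95% exact conditional interval from 0.822 to 1.29. A 2-fold difference of the sum in either direction lies outside that interval. Since the reads carry no molecular identifiers and may be PCR copies, every interval and floor covers counting error only. In bulk RNA, fewer expressing cells and less RNA per cell cannot be told apart.

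Most members were close to the limit of detection. The median member had 1 read in BM and 2 in ADM, against 10 and 9 over all 628 rows. Of the 32 members, 19 (59.4%) had at most 3 reads in each library, against 180 of 628 rows (28.7%). The members above 0 in both libraries numbered 19 of 32, against 504 of 628 rows. At 0 in BM were 5 members (15.6%), against 58 rows (9.24%). At 0 in ADM were 8 members (25%), against 66 rows (10.5%). A count of 0 allows up to 3 reads, or 3.97 RPM in BM and 3.79 RPM in ADM. A mean level of at least 10 RPM over both libraries, the minimum used for calls, was met by 4 members (12.5%), against 337 of 628 rows (53.7%).

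**Figure D2:**
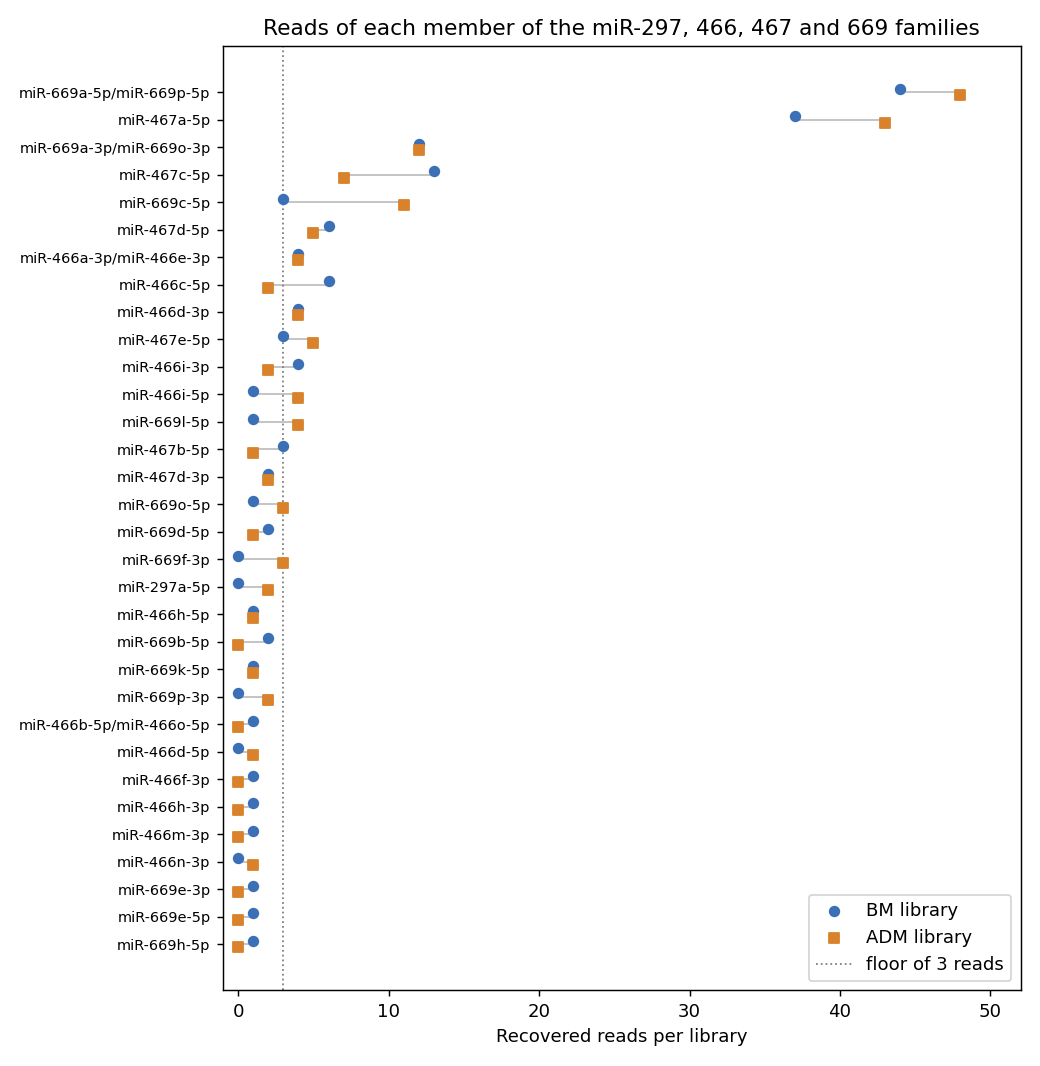
Recovered reads of each of the 32 members (y axis) in the BM library (blue circles) and the ADM library (orange squares), ordered by their sum. The 2 most abundant rows reach 37 to 48 reads, while 19 members have at most 3 reads in each library, the floor drawn as a dotted line.

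0 of the 4 members above the minimum were at least 2-fold apart on the log2(RPM + 1) scale. Over all 337 miRNAs above the minimum, 31.2% were at least 2-fold apart, 10.7% higher and 20.5% lower in ADM. With 4 members, the count says little against this background. Among 120 other miRNAs above the minimum whose summed reads lay in the members' range of 20 to 92, a comparison chosen after the data were seen, 35 (29.2%) were at least 2-fold apart. The median log2 ratio of the 4 members was -0.0019, and that of all 337 miRNAs -0.023.

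miR-669a carried the most reads. Its 5p arm, which shares a row with miR-669p-5p, had 44 reads in BM and 48 in ADM, or 58.3 and 60.7 RPM. The ADM share was 1.04 times the BM share (0.678 to 1.61; log2 ratio 0.06). In the mouse, miR-669a is known for repressing the myogenic factor MyoD in cardiac progenitors. Its row ranked 207th in BM and 192nd in ADM among the 628 rows. The opposite arm, which shares a row with miR-669o-3p, had 12 reads in each library, 15.9 and 15.2 RPM, with a ratio of 0.955 (0.393 to 2.32). The 5p row was thus the more abundant one in both libraries, although the joined rows do not stand for the same hairpins.

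miR-467a-5p was the second most abundant member, with 37 reads in BM and 43 in ADM, or 49.0 and 54.4 RPM. Its ratio was 1.11 (0.699 to 1.77; log2 ratio 0.15). The intervals of this miRNA and of the miR-669a-5p row do not reach a 2-fold difference in either direction. Together the 2 rows held 51.6% of the families' reads in BM (43.5 to 59.6%) and 53.8% in ADM (46.0 to 61.5%). The other 30 members had 76 and 78 reads in all.

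miR-467c-5p, the fourth member above the minimum, went the other way, with 13 reads in BM and 7 in ADM, or 17.2 and 8.85 RPM. Its log2 ratio of -0.89 was the lowest of the 4, and the counting interval of its ratio of 0.514 ran from 0.174 to 1.39. Its only annotated hairpin lies in the cluster at 10473931-10474027. A 2-fold fall and no difference are both within its counting error.

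miR-669c-5p had 3 reads in BM and 11 in ADM, the largest gap in reads towards ADM among the members. It was just under the minimum with a mean of 8.94 RPM, and is named after its values were seen. The ratio was 3.50, but its interval from 0.925 to 19.6 includes 1. Its hairpin is at 10509296-10509404. A ratio of 1 lay outside the interval for 0 of the 32 members, against 33.3% of all 628 rows. Most members have too few reads for the interval to exclude 1, even with all reads in 1 library. For miR-669f-3p, with 0 and 3 reads, the lower limit was 0.395. The 0 of 32 therefore says little about the members. A ratio of 1 lay outside for 0 of the 4 members above the minimum, and for 40 of the 120 other miRNAs with 20 to 92 summed reads (33.3%).

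By family, miR-669 had 69 reads in BM and 85 in ADM, a ratio of 1.18 (0.846 to 1.64). Without its 2 joined rows the ratio was 1.84 (0.905 to 3.91), a sum in which miR-669c-5p holds 3 of the BM reads and 11 of the ADM reads. miR-467 had 64 and 63 reads, with a ratio of 0.940 (0.653 to 1.35). miR-466 had 24 and 19 reads over 12 rows, with a ratio of 0.756 (0.392 to 1.44). All 3 intervals include 1. The miR-297 family had a single member, miR-297a-5p, with 0 reads in BM and 2 in ADM. Both values are within the floor of 3 reads, so no fold is given.

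**Figure D3:**
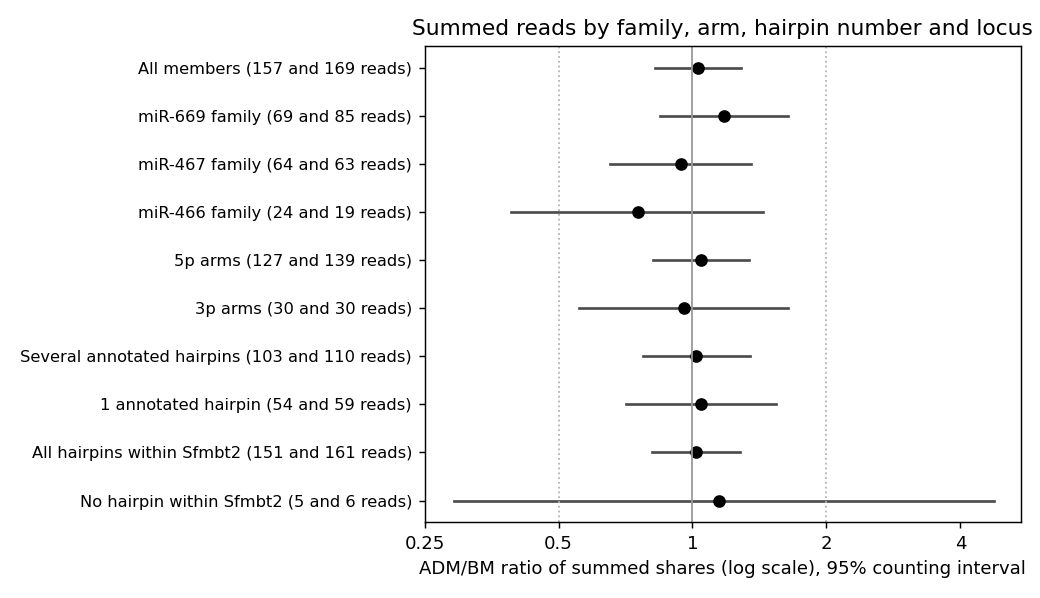
Ratio of the summed share of reads in ADM to that in BM (x axis, log scale) for all members and for groups of members by family, arm, number of annotated hairpins and locus (y axis). Points are ratios, lines are 95% exact conditional counting intervals, and dotted lines mark 2-fold differences. The interval of each group drawn includes 1, and the ratio for all members is 1.03.

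The miR-466 rows were individually low. miR-466c-5p had 6 reads in BM and 2 in ADM, a ratio of 0.318 (0.0314 to 1.78). miR-466d-3p and the row of miR-466a-3p and miR-466e-3p each had 4 reads in both libraries. The row of miR-466b-5p and miR-466o-5p had 1 read in BM and 0 in ADM, although these names have 9 annotated hairpins. miR-466h-5p, known from Chinese hamster cells as a promoter of apoptosis, had 1 read in each library. The remaining miR-466 members in the cluster had at most 1 read in a library.

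Among the other miR-467 rows, miR-467d-5p had 6 and 5 reads and miR-467e-5p 3 and 5. miR-467d-3p had 2 reads in each library. miR-467b-5p, reported to target lipoprotein lipase in mouse macrophages, had 3 reads in BM and 1 in ADM, a ratio of 0.318 (0.00607 to 3.97). The intervals of these rows all include 1.

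The other miR-669 rows ranged from 0 to 4 reads. miR-669l-5p had 1 read in BM and 4 in ADM, miR-669o-5p 1 and 3, and miR-669f-3p 0 and 3. In the opposite direction, miR-669b-5p had 2 and 0 reads and miR-669d-5p 2 and 1. These differences are all of 1 to 3 reads, and each interval includes 1.

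The 5p arms took most of the reads. In BM, 127 of 157 reads (80.9%, 73.9 to 86.7%) came from the 20 rows of 5p arms, and in ADM 139 of 169 (82.2%, 75.6 to 87.7%). The summed ratio was 1.05 (0.816 to 1.34) for 5p arms and 0.955 (0.556 to 1.64) for 3p arms. The split is given by family without a test. In miR-467 the 5p arms had 62 and 61 reads and the 3p arm 2 in each library. In miR-669 they had 56 and 68 against 13 and 17. In miR-466 the 3p arms had 15 and 11 reads and the 5p arms 9 and 8. These splits rest on the rows that name an arm.

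Reads of names with many hairpins cannot be placed on a single copy. The 9 member rows whose names have several annotated hairpins held 103 of 157 reads in BM (65.6%, 57.6 to 73.0%) and 110 of 169 in ADM (65.1%, 57.4 to 72.2%). The miR-669a-5p row stands for 14 hairpins and miR-467a-5p for 10. Number of copies and reads did not go together in every row, as the 9 hairpins of miR-466b and miR-466o had 1 read in all for the 5p arm. The 23 rows with 1 annotated hairpin had 54 and 59 reads, a ratio of 1.04 (0.709 to 1.54). For 1 joined name, miR-466a, no hairpin of exactly that name was annotated. A hairpin named Mir466, without a letter, lies in the cluster at 10507918-10507990 and was matched to no member row. Whether it encodes miR-466a was not checked. If it does, the row of miR-466a-3p and miR-466e-3p, with 4 reads in each library, belongs to the rows with several hairpins.

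Almost all reads carried names from the Sfmbt2 cluster. Rows whose annotated hairpins all lie in Sfmbt2 numbered 28 and had 151 reads in BM and 161 in ADM, with a ratio of 1.02 (0.811 to 1.28). miR-466i, from an intron of Cdk13 on chromosome 13 at 17747473-17747593 and on the strand opposite to that gene, was the only member name whose annotated hairpins all lie outside Sfmbt2. Its 3p arm had 4 reads in BM and 2 in ADM. Its 5p arm had 1 and 4. miR-297a-5p and miR-466f-3p, with hairpins both in the cluster and elsewhere, had 1 read in BM and 2 in ADM together. Because the families are near-copies and the labels do not say how reads with several matches were assigned, the division of reads between names is uncertain, and the sums are less exposed to it.

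**Figure D4:**
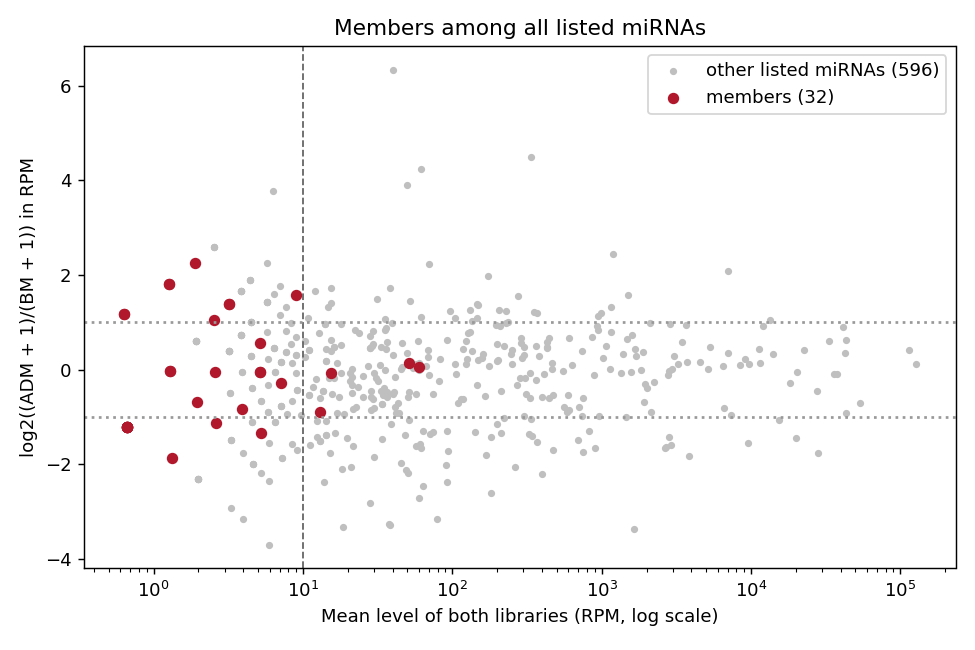
Mean level of both libraries in RPM (x axis, log scale) against log2((ADM + 1)/(BM + 1)) in RPM (y axis) for the 32 members (red) and the other 596 listed miRNAs (grey). The dashed line marks the minimum of 10 RPM and the dotted lines 2-fold differences. The 4 members right of the dashed line lie between -0.89 and 0.15, and wider ratios among members occur only left of it, where 1 read moves a ratio strongly.

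Of the 3 rows of the same families that name no arm, miR-466g had 7 reads in BM and 15 in ADM, or 9.27 and 19.0 RPM. Its ratio was 2.05 (0.786 to 5.93; log2 ratio 0.96), and its hairpin lies in the cluster at 10514595-10514674. miR-467h, from between genes on chromosome 9 at 115381819-115381939, had 3 and 6 reads. miR-466k, from chromosome 3 at 85467377-85467498, had 1 and 0. With these rows the families had 168 reads in BM and 190 in ADM, a ratio of 1.08 (0.873 to 1.34). miR-574-5p was the only miRNA outside the families with a long alternating run among listed miRNAs with a sequence. It had 34 and 37 reads, a ratio of 1.04 (0.635 to 1.71).

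In the authors' deposited table, 7 members have an ADM/BM ratio above 2 and 12 a ratio below 0.5. A replaced 0 is behind 3 of the former and 8 of the latter. The share of all 628 rows beyond these limits of the authors' ratio was not counted, so these counts do not show whether the families stand out. The authors' deposited table gives the highest ratio of the families, 5.73, to miR-669f-3p, which has 0 reads in BM and 3 in ADM. The lowest there, 0.239, belongs to miR-669b-5p, with 2 reads in BM and 0 in ADM. Without a level minimum, 19 of 32 members were at least 2-fold apart on the log2(RPM + 1) scale, 9 of them towards ADM and 10 towards BM, against 46.0% of all 628 rows.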

How the data were processed

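Per the file headers, the authors' values came from miRanalyzer, and the submitters' processing notes name the build mm10. Its version, its filters and how it assigned reads with several matches are not stated there. The deposited level of a mature miRNA is a percent of reads, with a denominator made up almost wholly of reads of the listed miRNAs. In a second deposited table each 0 was replaced by 0.5 read, and that table holds the authors' ratio of ADM to BM and a log column headed ln2, whose deposited values equal log2 of the ratio (tolerance 0.001).

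The smallest value above 0 of a column was taken as 1 read, and 100% of the percent values then came out whole (tolerance 0.001 of a read). RPM is percent times 10000. Differences are log2((ADM + 1)/(BM + 1)) in RPM, and a call needs a mean of at least 10 RPM and 2-fold. Ratios with an interval have no pseudocount and a 95% exact conditional (Clopper-Pearson) interval. Python 3.11.15, pandas 2.3.3, scipy 1.17.1 and matplotlib 3.10.9 were used. Hairpin positions are from RefSeq GRCm38.p6 and gene structure from GENCODE M21. Mature sequences matched 1 of 32 members, so a comparison of sequence features over all members is void, as is a grouping of the members by seed.

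Members above the minimum, the 2 most abundant of each family, joined rows and the extremes were to be named; the text goes further and names others after their values were seen. Members and lists were chosen with earlier results of these data known. Alternatives were pseudocount, minimum level, threshold, scaling, the more abundant arm, joined rows left out and the most abundant member left out. There were 0 value columns without a mapped sample.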

Additional observations from a re-analysis of the deposited data

How the results depend on the processing

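No paired analysis was possible because each medium has 1 library. Without a minimum level, 19 of 32 members were at least 2-fold apart, against 46.0% of all 628 rows. Most of these members had few reads. With a 1.5-fold threshold 1 of 4 members was called (miR-467c-5p), against 0 of 4 as reported. The share of all miRNAs above the minimum at 1.5-fold was not counted, so this 1 of 4 has no background. The miR-669 ratio was 1.84 without joined rows. The other 36 of 39 alternatives to the counts, the median and the summed ratios stayed within a factor of 1.5 for counts or within the counting interval for ratios, as did 24 of 24 alternatives for 8 single members. These limits are wide at such read numbers. For the 8 single members they all include no difference and are far wider than the shift of either scaling. A larger pseudocount only moves a ratio towards no difference. The 24 of 24 could therefore hardly have come out otherwise, and says nothing about these members. No member reached a minimum of 100 RPM, so that alternative gave no value. The trimmed mean of M values lowered ratios without a pseudocount by 0.10 on the log2 scale, and median ratio scaling raised them by 0.03; with the pseudocount, low members moved less. The summed ratio of all members, 1.03 as reported, was 0.957 with the former and 1.05 with the latter, so its side of 1 depends on the scaling. Including rows without an arm was chosen after the data were seen.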
